A study of Mus musculus with 2 samples.

Results

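The genes described here are 7 regulators of the epithelial-to-mesenchymal transition: Zeb2 and its antisense transcript Zeb2os, Zeb1, Snai1, Snai2, Twist1 and Twist2. They were chosen by symbol and are 7 of the 32285 genes counted. Each symbol names 1 row of the count tables. Single-cell RNA sequencing was done on 2 libraries of mouse somitic gastruloids, stem cell aggregates that model the early embryo. The dTAG-13 library came from gastruloids given 100 nM dTAG-13 at 72 h and 96 h, and the untreated library from gastruloids that the sample labels call untreated, where the series text names DMSO. Both were made from 1 line, the E14 triple reporter, whose endogenous Zeb2 carries an HA and FKBP12-type degron tag, so the control cells carry the tag too. In both, 300 sorted cells were seeded per aggregate, 3 µM CHIR99021, a WNT pathway activator, was given at 48 h, and 10% Matrigel was added at 96 h. About 32 gastruloids were pooled per library and 10000 live-sorted cells were loaded. The labels do not state when the gastruloids were harvested.

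ZEB, SNAIL and TWIST proteins are DNA-binding repressors and activators that turn down cell junction genes such as Cdh1 and Epcam and turn on a migratory, mesenchymal programme. ZEB and SNAIL zinc fingers bind E-box motifs in the promoters of epithelial genes. In the embryo these factors act at gastrulation, in the formation of mesoderm and neural crest, and in somites. The compound dTAG-13 sends the tagged Zeb2 protein to degradation and leaves its transcript to be made, so the Zeb2 RNA level does not check the labels.

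After filtering, 6688 cells remained in the dTAG-13 library and 6231 in the untreated library, with medians of 20207 and 20073 unique molecular identifiers (UMIs, counted RNA molecules) per cell. The kept cells held 151601709 UMIs with dTAG-13 and 140019633 untreated. The libraries share 14 cell barcodes, 10 of them in both sets of kept cells. There is 1 library per condition, so differences between them could be neither tested nor checked against replicates. Intervals are 95% intervals that cover counting error only, and "higher" or "lower" describes these libraries.

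The E-box that ZEB and SNAIL proteins bind was looked for as CACCTG or its reverse complement CAGGTG, in RefSeq promoter windows of build GRCm38.p6 that run from 250 bases before to 50 after a transcript start. It stood in 6640 of 32851 windows, or 20.2%. Of 21 windows of epithelial junction and keratin genes, 16 held it (76.2%), in 14 of the 16 genes that had a window. That list also holds other epithelial genes, among them Ap1m2 and Spint2. Windows of the same gene can overlap, so a motif can be counted more than once. Of 5 windows of epithelial regulators, a list given below, 2 held it (40%). Both lists were chosen with earlier results of these data known. Among the 7 regulators 4 had a window, and 1 of their 7 windows held the motif, that of Snai1. A match is a description of letters and not a bound site. Shown here are Epcam, the junction gene used as the epithelial readout below (chr17:87635729-87636028, plus strand), the window of Cldn7 with 2 matches, where its other window has none (chr11:69965171-69965470, plus strand), the window of Ap1m2 with 4 matches (chr9:21312284-21312583, minus strand) and Snai1 (chr2:167537945-167538244, plus strand), with the motif in capitals.
Epcam: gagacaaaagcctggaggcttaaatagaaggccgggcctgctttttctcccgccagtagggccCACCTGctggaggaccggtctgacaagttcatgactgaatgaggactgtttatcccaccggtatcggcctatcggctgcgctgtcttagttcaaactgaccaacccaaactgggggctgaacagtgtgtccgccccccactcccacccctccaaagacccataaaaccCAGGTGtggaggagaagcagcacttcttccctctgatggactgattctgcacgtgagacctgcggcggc
Cldn7: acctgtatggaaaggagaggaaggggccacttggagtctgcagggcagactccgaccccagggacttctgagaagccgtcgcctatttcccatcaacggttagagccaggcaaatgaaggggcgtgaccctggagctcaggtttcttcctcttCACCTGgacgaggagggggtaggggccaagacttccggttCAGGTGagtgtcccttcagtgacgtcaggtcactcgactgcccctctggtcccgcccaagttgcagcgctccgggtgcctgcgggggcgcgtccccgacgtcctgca
Ap1m2: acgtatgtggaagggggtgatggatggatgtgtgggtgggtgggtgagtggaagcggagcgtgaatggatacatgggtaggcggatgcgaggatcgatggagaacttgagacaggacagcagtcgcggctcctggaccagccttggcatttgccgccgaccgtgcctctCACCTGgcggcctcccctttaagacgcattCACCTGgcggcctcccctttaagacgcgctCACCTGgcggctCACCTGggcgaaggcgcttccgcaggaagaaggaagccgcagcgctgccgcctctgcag
Snai1: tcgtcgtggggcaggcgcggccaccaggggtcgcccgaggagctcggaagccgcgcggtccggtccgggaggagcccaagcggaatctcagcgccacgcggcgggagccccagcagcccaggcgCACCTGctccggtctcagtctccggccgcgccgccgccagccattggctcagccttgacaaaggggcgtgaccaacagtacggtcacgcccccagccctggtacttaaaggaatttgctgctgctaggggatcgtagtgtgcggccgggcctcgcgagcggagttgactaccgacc

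Zeb2 RNA was higher in the dTAG-13 library, although its protein is the target of the compound. Zeb2, on chromosome 2 (GRCm38, 44983632 to 45117395, minus strand), had 14338 UMIs with dTAG-13 and 9507 untreated, that is 94.6 and 67.9 CPM, the count scaled to a common library total. The log2 ratio of CPM, with 1 CPM added to each level, was 0.47 (0.44 to 0.52). Zeb2os is an antisense gene inside the Zeb2 locus (45110707 to 45114087, plus strand). It had 6.72 CPM with dTAG-13 and 5.16 CPM untreated, a log2 ratio of 0.33 (0.24 to 0.52). The strand setting of the counting is not stated in the labels, so reads of the 2 genes cannot be fully told apart.

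The other regulators were lower in the dTAG-13 library, except Snai2. Zeb1, the second ZEB repressor, had 20.1 CPM with dTAG-13 and 31.4 CPM untreated, a log2 ratio of -0.62 (-0.71 to -0.58). Snai1, a zinc finger repressor of Cdh1 needed for mesoderm formation in the mouse, had 4.02 CPM with dTAG-13 and 6.98 CPM untreated (log2 ratio -0.67). Twist1, a bHLH factor of mesoderm and somites, had 20.9 CPM with dTAG-13 and 28.2 CPM untreated (log2 ratio -0.42). Twist2, its close relative, had only 171 UMIs with dTAG-13 and 269 untreated, a log2 ratio of -0.46. Snai2, the SNAIL factor known from neural crest, had 2.59 CPM with dTAG-13 and 2.88 CPM untreated, and its interval spans 0 (-0.36 to 0.05). Thus 2 of 7 had an interval above 0 and 4 of 7 one below 0. Over all 19470 genes with at least 10 UMIs, 30% had an interval above 0 and 19.7% one below 0, so an interval clear of 0 is common at this depth. By size, Zeb1 and Snai1 were at least 1.5-fold lower, as were 0.832% of all genes, and none of the 7 was at least 1.5-fold higher, as were 2.32% of all genes. These calls turn on the 1 CPM added. With no CPM added Zeb1 (-0.65), Snai1 (-0.80) and Twist2 (-0.77) were past 1.5-fold, beside 5.65% of all genes lower and 12.9% higher, and with 5 CPM added none of the 7 was. The median log2 ratio of all genes was 0.02.

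Lineages were described by gates, the cells with at least 2 UMIs of a marker: Meox1 for somite, Tbx6 for presomitic mesoderm, T for posterior progenitors and notochord, Sox2 for neural and pluripotent cells, Sfn, a marker of non-neural epithelium, Sox17 for endoderm and Zfp42 for naive pluripotent cells. Gates may share cells. They held 626 cells with dTAG-13 and 913 untreated for Meox1, 179 and 507 for Tbx6, 959 and 1387 for T, 3047 and 2989 for Sox2, 1338 and 319 for Sfn, 164 and 110 for Sox17, and 765 and 524 for Zfp42. Other markers bear on the names. The Sfn gate mixes cells and is called by its marker only: 6 naive pluripotent markers summed to 864 CPM there with dTAG-13 and 2240 CPM untreated, against 1088 and 804 CPM for 6 non-neural epithelial markers. Of Sfn-positive cells 16.7% were also Zfp42-positive with dTAG-13 and 35.1% untreated, and 54.5% and 72.1% Sox2-positive. In the Zfp42 gate 86.1% of cells with dTAG-13 and 86.6% untreated were also Sox2-positive, and the naive marker Dppa5a stood at 2812 and 3703 CPM. In the Sox17 gate the endoderm marker Trh stood at 1917 CPM with dTAG-13 and 2934 CPM untreated. There 5 endoderm markers summed to 3000 and 4023 CPM, and 6 endothelial markers to 22.5 and 67.7 CPM. The part of the endothelial markers' cells in the Sox17 ratios was not tested. Msgn1, a presomitic mesoderm factor, had 18 UMIs with dTAG-13 and 77 untreated in the Tbx6 gate. The neural crest marker Sox10 was near 0 in both libraries, at 0.0660 CPM with dTAG-13 and 0.0786 CPM untreated.

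Zeb2 was higher with dTAG-13 in all 7 gates, with every interval above 0. Of all genes tested, an interval above 0 was found for 13.3% in the Meox1 gate, 11.9% in Tbx6, 22.4% in T, 25.9% in Sox2, 16.2% in Sfn, 5.21% in Sox17 and 12.3% in Zfp42. An interval below 0 was found for 10.6%, 9.55%, 15.5%, 19.7%, 13.5%, 5.45% and 11.6% in the same order of gates. In Tbx6-positive cells it had 127 CPM with dTAG-13 and 80.4 CPM untreated. In Meox1-positive cells it had 104 CPM with dTAG-13 and 75.4 CPM untreated, in Sox2-positive cells 95.2 and 70.6, and in T-positive cells 89.3 and 62.3. These 4 gates have the highest Zeb2 in both libraries, in the same order. The 3 others were lower but had larger ratios: Sfn-positive cells had 65.0 CPM with dTAG-13 and 29.5 CPM untreated (log2 ratio 1.11, 0.95 to 1.33), Zfp42-positive cells 26.9 and 14.0 (0.89, 0.71 to 1.17), and Sox17-positive cells 24.5 and 11.8 (0.99, 0.45 to 1.70). The larger share of Zfp42-positive cells in the untreated Sfn gate moves with its low Zeb2; its part in that ratio was not tested. With dTAG-13 the intervals of Sox2 and T overlap, as do those of Zfp42 and Sox17. Untreated, those of Tbx6 and Meox1, of Meox1 and Sox2, and of Zfp42 and Sox17 overlap. In cells positive for exactly 1 marker the Sox17 ratio was 0.64 with an interval that spans 0 (-0.18 to 1.66). Zeb2os had an interval above 0 in 3 gates, Sox2, Sfn and Zfp42, and one that spans 0 in the other 4.

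**Figure D1:**
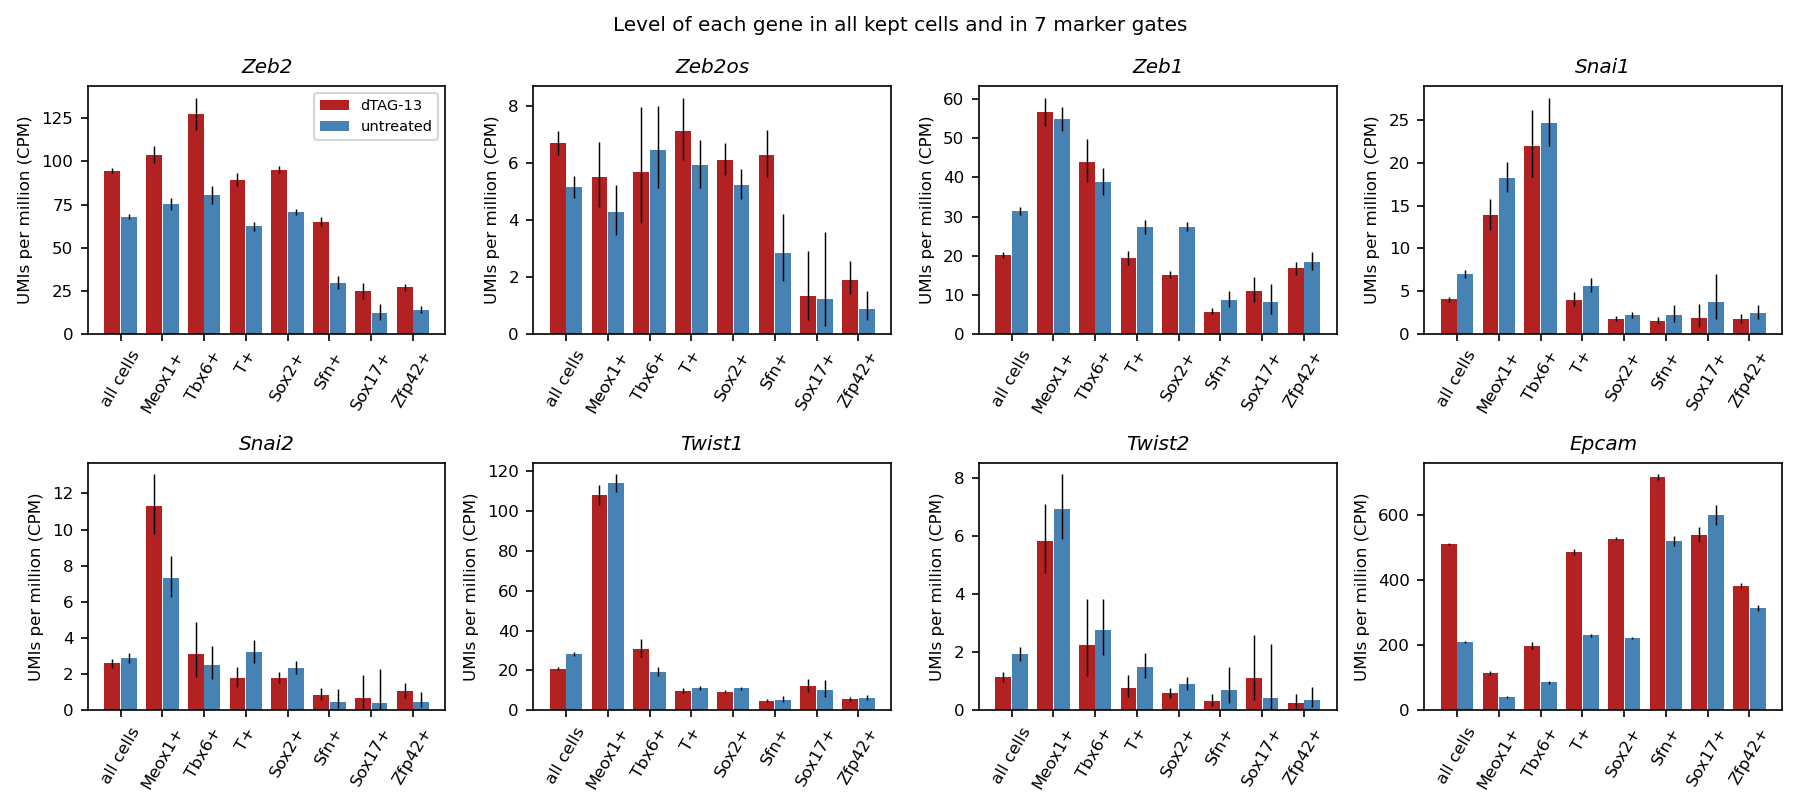
Level of each gene, in CPM, in all kept cells and in 7 overlapping marker gates, for the dTAG-13 (red) and untreated (blue) libraries. Bars are summed UMIs over total UMIs and lines are exact 95% Poisson intervals; Zeb2 is higher with dTAG-13 in every gate, while Zeb1, Snai1, Snai2, Twist1 and Twist2 are highest in the Meox1 or Tbx6 gate of both libraries.

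Zeb1 was highest in Meox1-positive cells, at 56.7 CPM with dTAG-13 and 54.9 CPM untreated, and next in Tbx6-positive cells, at 44.0 and 38.8. The intervals of both ratios span 0. It was lower with dTAG-13 in Sox2-positive cells, at 15.1 CPM against 27.3 CPM untreated (log2 ratio -0.81, -0.96 to -0.75). The makeup of the Sox2 gate differed: 23.9% of its cells were also Sfn-positive with dTAG-13 and 7.69% untreated, and 21.6% and 15.2% Zfp42-positive. The part of this makeup in the ratio was not tested. T-positive cells had 19.4 CPM with dTAG-13 and 27.2 CPM untreated (-0.47), and Sfn-positive cells 5.67 and 8.69 (-0.54). Restricted to cells of exactly 1 marker, the T ratio was -0.13 and the Sfn ratio -0.96, and both intervals span 0. In Tbx6-positive cells the ratio was 0.18, and without cells over 60000 UMIs, which were 16 of 179 with dTAG-13 and 11 of 507 untreated, it was 0.42 (0.19 to 0.67).

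Snai1 was highest in the Tbx6 gate, at 22.0 CPM with dTAG-13 and 24.7 CPM untreated, followed by Meox1-positive cells at 13.8 and 18.3. It was lower with dTAG-13 in Meox1-positive cells (log2 ratio -0.38, -0.64 to -0.16) and T-positive cells (-0.42). In Sox2-positive cells Snai1 had 1.77 CPM with dTAG-13 and 2.14 CPM untreated and an interval that spans 0, but cells of exactly 1 marker gave a ratio of 0.40 (0.10 to 1.29). Snai2 was highest in Meox1-positive cells, at 11.3 CPM with dTAG-13 and 7.34 CPM untreated, a log2 ratio of 0.56 (0.32 to 0.94). In T-positive cells it ran the other way, at 1.77 CPM with dTAG-13 and 3.20 CPM untreated, from 42 UMIs with dTAG-13 and 109 untreated and a log2 ratio of -0.60.

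Twist1 was highest in Meox1-positive cells, with 108 CPM with dTAG-13 and 114 CPM untreated, and the interval of the ratio spans 0 (-0.17 to 0.01). Its level was higher with dTAG-13 in Tbx6-positive cells, at 31.0 CPM against 19.3 CPM untreated (log2 ratio 0.66, 0.40 to 0.97). The makeup of that gate differed: 30.7% of its cells were also Meox1-positive with dTAG-13 and 14.6% untreated, 6 somite markers summed to 390 and 259 CPM, and 6 presomitic markers to 854 and 1321 CPM. In cells of exactly 1 marker that ratio was 0.59 and its interval spans 0, over 59 Tbx6 cells with dTAG-13 and 207 untreated. Sox2-positive cells had 9.26 CPM with dTAG-13 and 11.1 CPM untreated (-0.24). Twist2 was also highest in Meox1-positive cells, at 5.81 CPM with dTAG-13 and 6.94 CPM untreated. The plot of log2 ratios shows how wide the intervals of Snai2 and Twist2 are in the smaller gates.

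**Figure D2:**
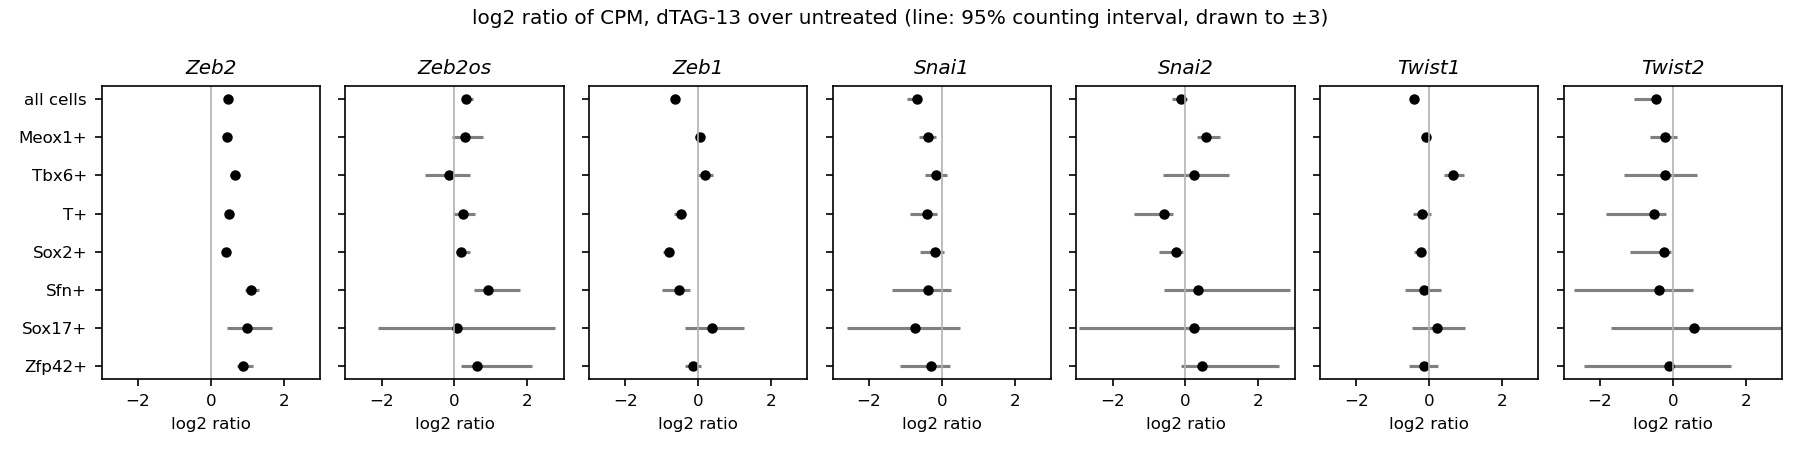
log2 ratio of CPM, dTAG-13 over untreated, for each regulator (panels) in all kept cells and 7 gates (rows). Points are ratios with a prior of 1 CPM and lines are 95% counting intervals without a prior, cut at 3; the Zeb2 points all lie right of 0.

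The libraries differ in their makeup. The whole-library ratio was therefore split, over 9 exclusive classes of cells, into a change in class shares and a change within classes. The classes were the cells of only a single gate, for each gate, the cells of no gate and the cells of several gates. Cells of no gate made up 26.4% with dTAG-13 and 20.1% untreated, and cells of several gates 26.4% and 24.2%. Those last classes name no lineage, so their within-class levels are not levels within a lineage. A change of makeup inside a class was not tested. For Zeb2 the class shares alone gave a log2 ratio of -0.13 and the within-class levels 0.60. For Twist1 the shares gave -0.25 and the within-class levels -0.17. Zeb1 had -0.18 from shares and -0.43 within classes, and Snai1 -0.19 and -0.47. In the whole dTAG-13 library 5 of 6 somite and 6 of 6 presomitic markers were at least 1.5-fold lower, beside 0.832% of all genes. That is the same direction as Zeb1, Snai1 and Twist1 and the opposite of Zeb2. The part of these lineages in the result beyond this split was not tested.

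Counted cell by cell, Zeb2 was found in many cells and the others in few. With each cell thinned to 5000 UMIs, averaged over 100 draws, 33.6% of cells had a Zeb2 UMI with dTAG-13 and 27.1% untreated. At full depth the shares were 66.2% with dTAG-13 and 63.6% untreated. Zeb1 was found in 8.27% of thinned cells with dTAG-13 and 13.3% untreated, and Twist1 in 7.50% and 9.96%. Snai1 was found in 1.93% with dTAG-13 and 3.29% untreated, Zeb2os in 3.53% and 2.63%, Snai2 in 1.26% and 1.38%, and Twist2 in 0.546% and 0.995%. Free RNA can give UMIs in cells that do not express a gene. In Zfp42-positive cells Twist1 was found in 2.01% with dTAG-13 and 2.63% untreated, where median depth was 27324 and 26201.5 UMIs. For Zeb2 in the same gate the shares were 8.66% with dTAG-13 and 5.27% untreated, and 4.24% and 2.86% in cells that also had 2 UMIs of Dppa5a. Leaving out Zeb2os, which lies in Zeb2, cells with 2 of the other 6 regulators made up 6.78% with dTAG-13 and 8.63% untreated, and cells with 3 made up 1.15% and 1.40%. In Meox1-positive cells 26.2% had 2 of these 6 with dTAG-13 and 23.1% untreated.

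Zeb1, Snai1, Snai2, Twist1 and Twist2 were found together in cells more often than the product of their single shares gives. For Twist1 and Snai2 the observed share was 4.27 times that product with dTAG-13 and 2.71 times untreated. For Twist1 and Zeb1 it was 2.63 times with dTAG-13 and 1.63 times untreated, and for Snai1 and Zeb1 2.36 and 1.53. Zeb2 stood closer to the product with each of them: 1.19 with Zeb1 in both libraries, 1.24 with Snai1 with dTAG-13 and 1.18 untreated, and 1.13 and 1.09 with Twist1. This measure has a lower ceiling for a common gene such as Zeb2. As odds ratios at full depth, over 1 meaning more shared cells, Zeb2 with Zeb1 had 1.88 with dTAG-13 and 2.30 untreated. Snai1 with Zeb1 had 3.34 and 2.30, so the contrast depends on measure and depth. Pairs among Snai1, Snai2 and Twist2 rest on few cells, under 5 per draw. Doublets and free RNA also put 2 genes in 1 barcode; their part was not tested.

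**Figure D3:**
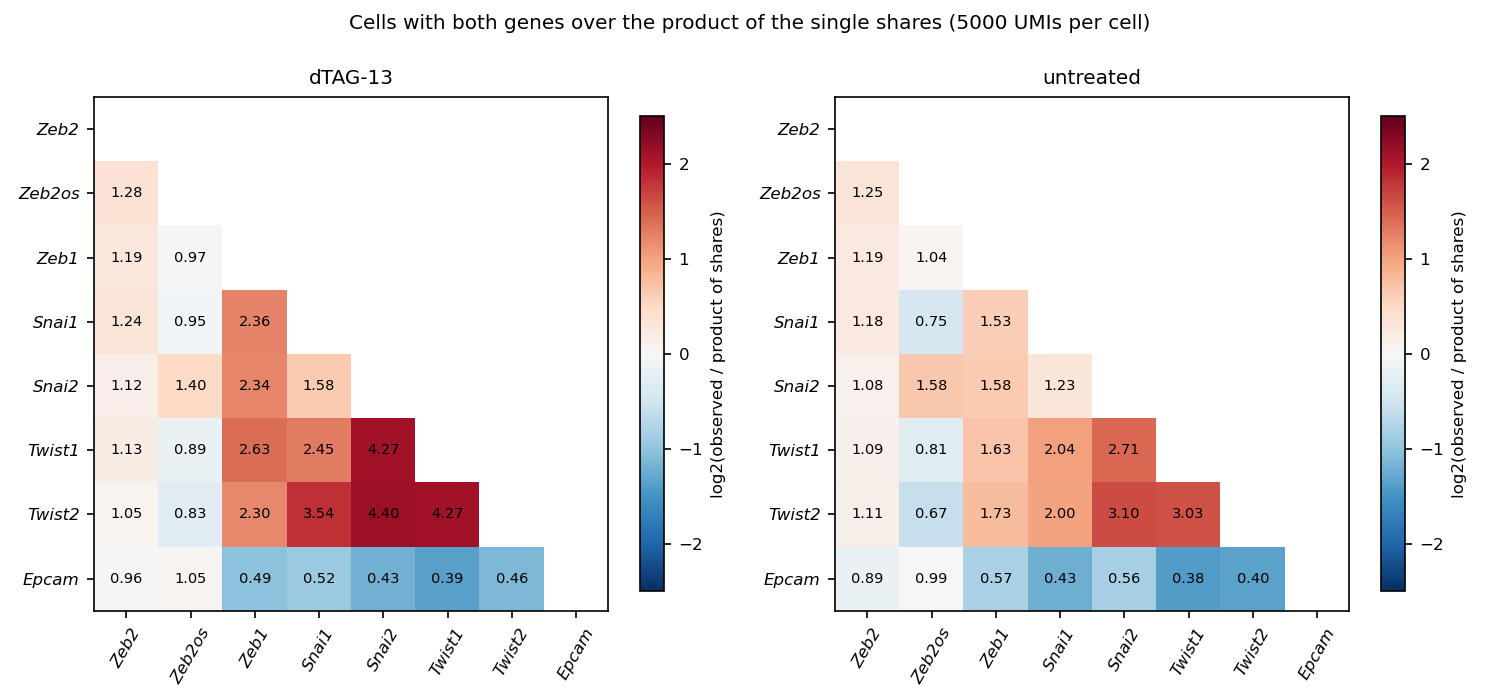
Share of cells with both genes over the product of the 2 single shares, for each pair among the regulators and Epcam, thinned to 5000 UMIs, with dTAG-13 on the left and untreated on the right. Colour is the log2 of the printed value; Epcam is below 1 with Zeb1, Snai1, Snai2, Twist1 and Twist2 and near 1 with Zeb2 and Zeb2os in both libraries.

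Epcam, the epithelial adhesion molecule, had 510 CPM with dTAG-13 and 209 CPM untreated, and was found in 73.0% and 43.8% of thinned cells. In thinned cells Zeb2 overlapped with it far more than Zeb1, Snai1, Snai2, Twist1 and Twist2 did, and Zeb2os more still. Of Zeb2os-positive cells 76.8% had Epcam with dTAG-13 and 43.4% untreated, with odds ratios of 1.24 (0.909 to 1.69) and 0.982 (0.717 to 1.35). Of Zeb2-positive cells 70.3% had Epcam with dTAG-13 and 39.0% untreated, against 74.3% and 45.7% of Zeb2-negative cells. Of Twist1-positive cells 28.3% had Epcam with dTAG-13 and 16.8% untreated, and of Zeb1-positive cells 35.8% and 25.1%. As odds ratios, a value under 1 meaning fewer shared cells, Zeb2 and Epcam had 0.820 (0.732 to 0.918) with dTAG-13 and 0.760 (0.677 to 0.852) untreated. Zeb1 and Epcam had 0.173 with dTAG-13 and 0.382 untreated, Snai1 0.222 and 0.288, and Twist1 0.121 and 0.228. These odds ratios move with depth: without thinning the Zeb2 value was 0.543 with dTAG-13 and 0.603 untreated, which turns the order of the libraries round.

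Along the Epcam count the regulators parted. With no Epcam UMI among 5000, 36.9% of cells had Zeb2 with dTAG-13 and 29.5% untreated. At 5 to 8 Epcam UMIs the Zeb2 share was 32.6% with dTAG-13 and 19.7% untreated. Zeb1 was found in 19.7% of cells without Epcam with dTAG-13 and 17.7% untreated, and in 1.59% and 2.74% at 5 to 8 UMIs. Twist1 was found in 19.9% of cells without Epcam with dTAG-13 and 14.8% untreated, and in 2.29% and 3.07% at 5 to 8 UMIs. Cells with 9 or more Epcam UMIs averaged 230 with dTAG-13 and 47.9 untreated, so the last point is wide.

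**Figure D4:**
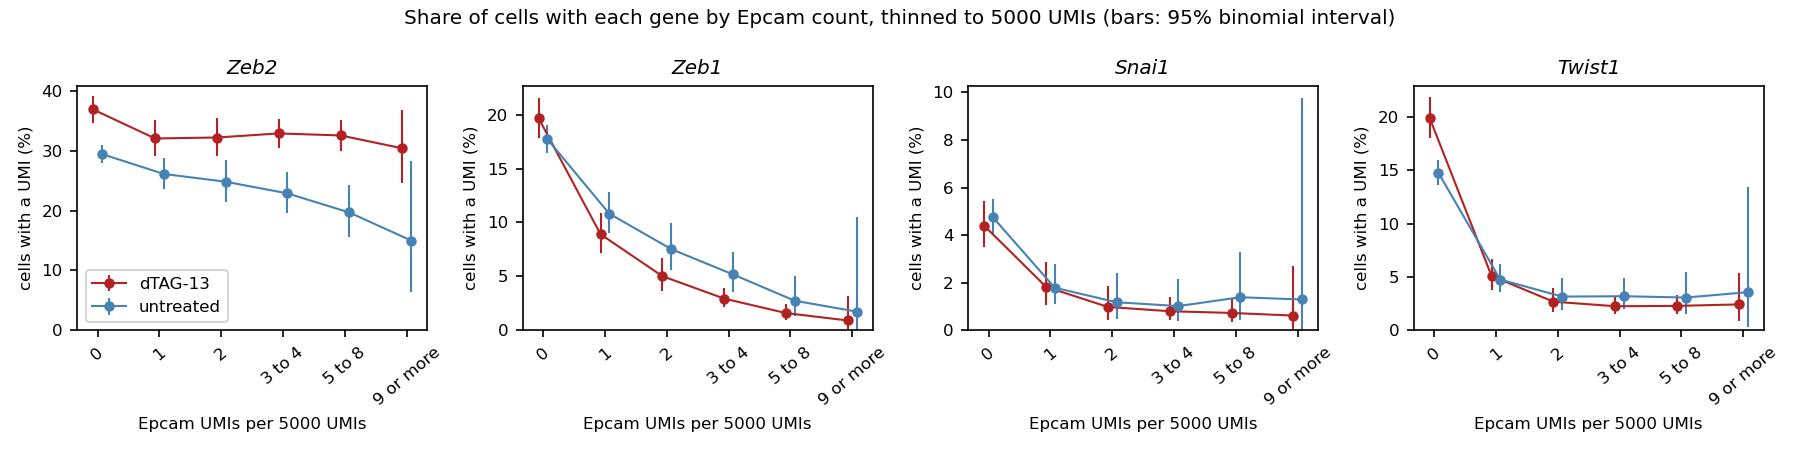
Percent of cells with a UMI of Zeb2, Zeb1, Snai1 or Twist1 by the number of Epcam UMIs, each cell thinned to 5000 UMIs, for dTAG-13 (red) and untreated (blue). Points are means over 100 draws and bars are 95% binomial intervals. Zeb2 stays between 30.4% and 36.9% with dTAG-13. Untreated, it falls from 29.5% with no Epcam UMI to 19.7% at 5 to 8 and 15.0% at 9 or more. Zeb1 and Twist1 are low in cells with Epcam in both libraries.

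Cells with both Zeb2 and Epcam made up 23.7% with dTAG-13 (22.6% to 24.7%) and 10.6% untreated (9.81% to 11.4%). The product of the 2 single shares was 24.5% with dTAG-13 and 11.9% untreated, so the observed share was 0.964 and 0.889 of it. Both single shares were higher with dTAG-13. The observed share was under the product in both libraries and nearer to it with dTAG-13. The share of cells with both was above the untreated one in each gate, with intervals that do not overlap in the Meox1, T, Sox2, Sfn and Zfp42 gates. In Sfn-positive cells it was 23.3% with dTAG-13 and 9.45% untreated, in Sox2-positive cells 26.8% and 12.6%, and in T-positive cells 24.9% and 13.2%. In Meox1-positive cells it was 7.57% with dTAG-13 and 2.73% untreated, which is 0.976 and 0.969 of the product of the single shares there. The intervals overlap in the Sox17 gate and in the Tbx6 gate, which had 13.9% with dTAG-13 and 7.49% untreated. In the Tbx6 gate the Epcam ratio itself depended on the cells taken: 1.20 over the gate and 0.04 (-0.39 to 0.46) in cells of exactly 1 marker.

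**Figure D5:**
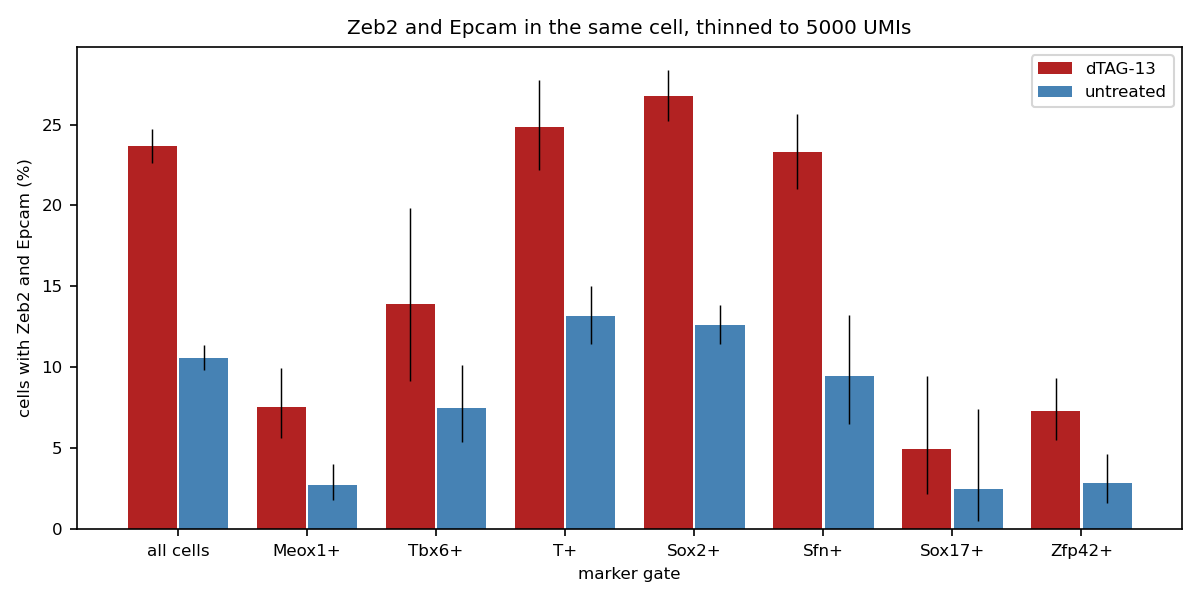
Percent of cells with a UMI of both Zeb2 and Epcam in all kept cells and 7 marker gates, thinned to 5000 UMIs, for dTAG-13 (red) and untreated (blue). Bars are means over 100 draws and lines are exact 95% binomial intervals. All cells stand at 23.7% with dTAG-13 and 10.6% untreated, where the product of the single shares gives 24.5% and 11.9%.

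Genes around the regulators were read from lists, with 1 CPM added to each level unless stated. Of 20 epithelial junction and keratin genes 18 were at least 1.5-fold higher with dTAG-13 and 0 lower, with a median log2 ratio of 1.28 beside 0.02 over all genes. In the whole library 2.32% of all genes were higher and 0.832% lower. The count from the junction and keratin list differed between gates. It was 18 of 20 higher in Sox2-positive cells (2.57% of all genes there), 16 of 20 in T (4.93%), 16 of 19 in Meox1 (2.53%) and 14 of 19 in Tbx6 (5.46%). It was 9 of 20 in Sfn-positive cells (3.22%) and 6 of 20 in Zfp42 (1.56%). In Sox17-positive cells 1 of 20 was higher and 2 were lower, where 6.15% of all genes were higher and 5.09% lower. Markers of non-neural epithelium moved with these genes in the whole library, where 6 of 6 were at least 1.5-fold higher (median 1.64). That list shares Krt8 and Krt18 with the junction and keratin list and Grhl3 with the epithelial regulators, and its part in the counts was not tested. Cdh1, the junction cadherin, had 47.4 CPM with dTAG-13 and 18.8 CPM untreated (1.29), the claudin Cldn6 62.0 and 21.4 (1.49), and the claudin Cldn7 101 and 19.0 (2.35). Pkp3, a desmosome plaque gene, had 1.07 CPM with dTAG-13 and 0.514 CPM untreated. Its ratio was the lowest of the list at 0.45 with 1 CPM added, but 1.06 (0.65 to 1.48) without, where Spint2, a protease inhibitor, was lowest (0.50). Of 10 epithelial regulators 8 were higher and 0 lower in the whole library, but 0 of 10 were higher in Sfn-positive cells and 0 of 9 in Zfp42-positive cells, against 7 of 10 in Sox2. The splicing factor Esrp1 had 43.2 CPM with dTAG-13 and 14.4 CPM untreated (1.52), and Grhl2, which in human cells represses ZEB1, 13.9 and 4.63 (1.40). Ovol2 and Ovol1, repressors of mesenchymal genes, had log2 ratios of 0.96 and 1.15, and Grhl1, a relative of Grhl2, the lowest of the list (0.22).

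Of 14 mesenchymal genes tested 0 were at least 1.5-fold higher and 3 lower: the intermediate filament gene Vim (-0.71), the cadherin Cdh2 (-0.65) and the actin gene Acta2 (-1.17). Beside this count and those of the lists below stand 2.32% of all genes higher and 0.832% lower. At these shares 0 or 1 call in a list of 18 or 24 genes says little about the list. Fn1, fibronectin, had a ratio of -0.17, Cdh11 -0.51, and the matrix gene Sparc 0.43. With no CPM added 8 of the 14 were at least 1.5-fold lower and 0 higher, since several collagen genes stood near or under 1 CPM. Of all genes 5.65% were then lower and 12.9% higher. None of 24 cofactors of ZEB and SNAIL proteins passed 1.5-fold in either direction: the corepressors Ctbp1 and Ctbp2 had -0.14 and 0.19, Kdm1a 0.13 and Rcor1 0.05. Ajuba, a SNAIL-binding scaffold, was the highest (0.47) and Fbxl14, which in human cells marks SNAIL for degradation, the lowest (-0.47). Among 18 upstream signals and factors 2 were lower, Wnt3a (-1.23) and Msgn1 (-0.64), and 0 higher; Fgf8 had -0.37, Fgfr1 0.10, Tgfbr1 -0.21, Tgfbr2 0.10 and the ligand Bmp2, the highest, 0.52. Among 18 bHLH partners and other factors 1 was lower, Foxc1 (-0.68), and 0 higher; the TWIST partners Tcf3, Tcf4 and Tcf12 had -0.22, -0.12 and -0.19, and Id1, which blocks bHLH pairing, 0.44. Sox9 was the highest at 0.51. With no CPM added 1 upstream gene and 2 of the bHLH list were higher, and 2 of each lower. Markers of endothelium, neural crest, cardiac tissue and sclerotome were mostly under 1 CPM, and with 1 CPM added none was past 1.5-fold. With none added 2 of 6 endothelial markers were lower, among them Cdh5 at 0.343 CPM with dTAG-13 and 0.793 CPM untreated, and 1 of 2 sclerotome markers. The endothelial marker Pecam1 ran the other way, at 7.12 and 5.11 CPM. Of its UMIs 1005 of 1079 with dTAG-13 and 634 of 715 untreated lay in Zfp42-positive cells, so here it mostly follows those cells. With Pecam1 included, the 6 endothelial markers summed to 25.1 and 24.4 CPM. Of neural crest markers 3 of 6 were higher, among them Foxd3 at 0.996 CPM with dTAG-13 and 0.493 CPM untreated. Among the gates Foxd3 was highest in Zfp42-positive cells, at 4.43 and 3.06 CPM. Ets1 was lower, at 4.97 and 7.21 CPM, and the 6 neural crest markers summed to 9.73 and 11.5 CPM. Of cardiac markers 1 of 5 was higher, Tnnt2, at 0.508 and 0.200 CPM.

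Across 16 profiles, 8 exclusive cell classes in each library, the genes most like each regulator were ranked by Pearson r among 10283 genes. Profiles share libraries and depth, so r is a description. Among the genes most like Twist1 were Col26a1 (0.97), Prrx2, Has2 and Tcf15. Snai1 was most like S1pr3 (0.96), Clmp, Dll3, Dctn6 and Gm7967, and Zeb1 like Fads1 (0.95), Ndufb10, Cep170, Plekho1 and Jam3. Zeb2 was most like Knop1 (0.95), Phlda3, Polr2f, Zfp423 and Zfp385a, and Zeb2os like Raly (0.92), Mark1, Cmc2, Prrc2a and Fam98b. Snai2 and Twist2 were too low to rank. Among the regulators r was 0.85 for Zeb2 and Zeb2os, 0.80 for Zeb1 and Twist1, and 0.37 for Zeb2 and Twist1. With Epcam it was -0.46 for Zeb2, -0.80 for Zeb1 and -0.82 for Twist1.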

How the data were processed

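The deposited values are counts of UMIs for each gene in each barcode, raw and not normalized, made by the authors with Cell Ranger 6.1.2 on mm10, per the submitters' processing notes. The files hold 7873 barcodes with 176677276 UMIs (dTAG-13) and 7276 with 158002807 (untreated). Barcodes with under 1000 genes or over 10% mitochondrial UMIs were removed (693 and 630). Scrublet in scanpy 1.11.5 called 2 and 6 doublets by its automatic threshold, too few to rely on, so the top scores were removed at 0.8% per 1000 barcodes (496 and 424 barcodes; 492 and 415 of these had not already failed).

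Counts were summed per library and gate and scaled to CPM with exact Poisson intervals. Ratios have a prior of 1 CPM, which shrinks genes near or under 1 CPM; their intervals are exact conditional binomial intervals without a prior, so for low genes the printed ratio can lie outside its interval. Shares have exact Clopper-Pearson intervals on counts averaged over 100 draws, each cell thinned to 5000 UMIs, which left out 81 dTAG-13 and 87 untreated cells. Odds ratio intervals are approximate (Woolf). UMI intervals cover counting error only. Positions are from GENCODE M21 on GRCm38, which matched 32158 of 32285 identifiers. Genes entered counts with at least 10 UMIs over both libraries. Ratio and thinning code was tested on simulated data. edgeR 4.0.16 and DESeq2 1.42.0 gave alternative scalings of the counts and no test.

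The genes named are the 7 regulators, Epcam, the gate markers, the first 4, the highest and the lowest of each list, and the 5 most similar genes of each regulator. Of the markers of other cell types only those that bear on a gate or a count are named. Msgn1 and the promoters printed from the junction and keratin list were chosen after their values were seen. The regulators and all lists were chosen with earlier results of these data known. Other processing choices were varied, and their effect is given with the closing observations. One of the genes ranked as most like Twist1 is not reported here.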

Additional observations from a re-analysis of the deposited data

Results flagged for a closer look

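Snai2 ran in opposite directions in different gates. Its log2 ratio, dTAG-13 over untreated, was 0.56 in Meox1-positive cells and -0.60 in T-positive cells, and 0.56 against -0.26 in Sox2-positive cells. Twist1 had 0.66 in Tbx6-positive cells and -0.24 in Sox2-positive cells. In each case both counting intervals lie clear of 0 on opposite sides. The differences between gates were not tested, since there is 1 library per condition. In cells positive for exactly 1 marker, the intervals of the Snai2 ratio in T-positive and in Sox2-positive cells and of both Twist1 ratios span 0.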

How the results depend on the processing

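No ratio or odds ratio whose interval was clear of the null changed direction. Over all kept cells edgeR TMM scaling gave log2 ratios of 0.435 for Zeb2 and 1.245 for Epcam, and DESeq2 size factors 0.428 and 1.237. A prior of 5 CPM gave 0.206 for Zeb2os, -0.539 for Zeb1, -0.410 for Snai1, -0.362 for Twist1, -0.176 for Twist2 and 1.266 for Epcam; a larger prior shrinks low genes by construction. Without doublet removal Snai1 had -0.628 and Twist2 -0.424, and Snai2 -0.154 with an interval below 0. Without cells over 60000 UMIs, a limit chosen after seeing the data, Twist2 had -0.455. Thinned to 10000 UMIs the odds ratio of Zeb2 with Epcam was 0.715 with dTAG-13 and 0.676 untreated, and without thinning 0.543 and 0.603; the cause was not tested. Counts of genes past 1.5-fold stayed within 1.5 times under the scalings and filters tried, at 392 to 455 higher and 154 to 190 lower, but turned on the prior. Both of these alternatives for the counts were chosen after seeing the data. With no prior 2512 genes were higher and 1100 lower, against 451 and 162; 8 mesenchymal genes were lower against 3, 1 upstream gene was higher against 0, and 2 genes of the bHLH list were higher against 0 and 2 lower against 1. With a prior of 5 CPM 158 genes were higher and 62 lower, 4 epithelial regulators were higher against 8, 1 upstream gene was lower against 2, and 0 of the bHLH list were lower against 1.

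Of 49 ratios of a regulator in a gate, the interval changed side of 0 for 14 in cells of exactly 1 marker, 11 with gates at 1 UMI, 6 at 3 UMIs, 9 without cells over 60000 UMIs, 4 without doublet removal, 3 with TMM and 2 with DESeq2. Twist1 in Zfp42-positive cells was -0.13, but 0.49 without doublet removal and -0.48 without cells over 60000 UMIs. Zeb2 kept all 7 gates above 0 except in cells of exactly 1 marker, where 6 were. The stricter Zfp42 and Dppa5a gate was also chosen after seeing the data. Snai2 and Twist2 are limited by depth in the smaller gates. No paired analysis was possible because each condition has 1 library and the labels give no replicate numbers.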
